A study of Mus musculus with 16 samples.

Results

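Collagens and the matrix and stellate cell genes measured beside them were followed in mouse liver across 8 groups. The members were all genes whose symbol on the array is that of a collagen chain, together with a set of contractile, protease, cross-linking, matrix and receptor genes of hepatic stellate cells. Of the 25697 probes in the table, those for 53 such genes were taken, and 37 of the 53 were tested among 11322 features in all. Each gene was read from the probe with the highest mean over the 16 arrays. Fn1, named with the members, had no probe in the table used here.

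The livers came from male FVB mice aged 10 weeks that were wild-type or carried a LKB1 lox/lox liver-specific knockout of the kinase LKB1 (gene Stk11). LKB1 activates the AMP-activated kinase AMPK. The labels state neither the promoter that drives the recombinase nor doses and times. Mice of both genotypes had received mineral oil, CCl4 (carbon tetrachloride, a liver toxicant), saline or AICAR (taken up by cells and phosphorylated to an AMP analogue that activates AMPK), and each of the 8 groups held 2 arrays. Both arrays of a group are biological replicates by their labels, with no animal named, so the p-values measure the spread between these samples, which may be technical.

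Hepatic stellate cells store retinoids in the quiescent state and lie between hepatocytes and the sinusoidal endothelium. After liver injury they can become contractile, collagen-producing myofibroblasts, marked by smooth muscle actin (Acta2) and by fibrillar collagens (Col1a1, Col1a2, Col3a1). Platelet-derived growth factor drives their proliferation through its receptors (Pdgfra, Pdgfrb), TGF-beta drives collagen transcription, gelatinase A (Mmp2) and the tissue inhibitors Timp1 and Timp2 set matrix turnover, and the lysyl oxidases Lox and Loxl1 cross-link collagen and elastin.

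The results below turn on 6 members that passed the test between genotypes after AICAR, and the RefSeq promoter table (build GRCm38.p6) held the upstream region of 3 of these 6 and of 38 of the 53 members. They are printed here because Acta2 and Col6a1 fell and Col7a1 rose in that comparison. Each line gives the 250 bases before the annotated start of the gene, 5′ to 3′ on the strand of the gene, with motif matches in capitals.
Acta2 (chr19:34255374-34255623, minus strand): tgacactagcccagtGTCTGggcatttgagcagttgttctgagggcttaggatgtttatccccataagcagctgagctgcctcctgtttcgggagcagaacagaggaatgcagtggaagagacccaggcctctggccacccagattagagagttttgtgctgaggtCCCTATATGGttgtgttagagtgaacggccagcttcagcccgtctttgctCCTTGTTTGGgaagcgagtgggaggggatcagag
Col6a1 (chr10:76726045-76726294, minus strand): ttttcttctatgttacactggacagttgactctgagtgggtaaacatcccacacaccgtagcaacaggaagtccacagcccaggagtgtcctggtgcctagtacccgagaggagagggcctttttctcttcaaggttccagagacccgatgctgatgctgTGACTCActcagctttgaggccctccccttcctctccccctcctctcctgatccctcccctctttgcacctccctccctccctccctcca
Col7a1 (chr9:108953336-108953585, plus strand): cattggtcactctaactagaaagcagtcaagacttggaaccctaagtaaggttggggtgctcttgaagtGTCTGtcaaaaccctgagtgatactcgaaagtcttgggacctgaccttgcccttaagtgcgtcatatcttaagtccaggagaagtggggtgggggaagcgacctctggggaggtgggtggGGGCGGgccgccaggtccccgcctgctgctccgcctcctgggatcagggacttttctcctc

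The motifs searched on both strands were TGANTCA (AP-1), CAGAC (SMAD), GGGCGG (Sp1) and the CArG box bound by serum response factor (CC, then 6 letters of A or T of which at most 1 may differ, then GG). No match overlapped another. The Acta2 window held 2 CArG boxes, which ended 75 and 25 bases before the start, and a CAGAC match on the other strand ended 231 bases before it. Col6a1 held 1 AP-1 match, which ended 84 bases before the start. Col7a1 held a GGGCGG match that ended 56 bases before the start and a CAGAC match on the other strand that ended 177 bases before it. Over all 32851 windows of this length in the table, TGANTCA was found in 6.75%, CAGAC in 42.2%, GGGCGG in 32.7% and a CArG box in 8.59%. A match is a string of letters and shows no binding.

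The arrays had median probe signals of 172.4 to 213.7 and detected 12233 to 13730 probes each (detection p under 0.05). Their number limits the precision of every value. Stk11, the targeted gene, lay at 10.04 to 10.38 on the 8 wild-type arrays and at 8.94 to 9.54 on the 8 knockout arrays (normalized log2 signal, the scale of all levels below), and the genotypes did not overlap. The 2 knockout saline arrays differed by less than the noise between probes: over 1904 pairs of probes of the same gene, the difference between the arrays at one probe correlated with that at the other at -0.022, against 0.42 or more for the 119 other pairs of arrays. They were counted as 1 sample, the mean of both.

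Of the 53 members, 20 had a mean level above 7 and were detected on all 16 arrays, and the text calls these the brighter members. They were Acta2, Des, Col1a1, Col3a1, Col4a1, Col4a2, Col5a1, Col6a1, Col14a1, Col16a1, Col18a1, Dcn, Lum, Sparc, Loxl1, Mmp2, Timp1, Timp2, Pdgfra and Pdgfrb. The other 17 tested members were dimmer: 7 were detected on 6 to 15 arrays and 10 on 2 to 5. Among the 16 members that were not tested, 11 were detected on 0 arrays (Col5a2, Col24a1 and Fbln5 among them) and 5 on 1 array (Col4a3, Col4a6, Col9a2, Col19a1 and Col28a1). By role, 9 of 11 fibrillar collagens were tested, 3 of 6 basement membrane collagens, 3 of 4 microfibril and anchoring collagens, 3 of 6 fibril-associated collagens and 4 of 10 other collagens. Each of the 3 contractile and filament genes, the 3 genes of protease and inhibitors, both cross-linking enzymes and the 3 genes of receptors and retinoid storage was tested, and 4 of the 5 matrix glycoprotein genes.

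Some stellate cell genes were at the edge of detection. Lrat, which esterifies retinol for storage, was detected on 2 of 16 arrays, 1 of knockout CCl4 and 1 of knockout saline. Its level lay at 5.57 and 5.33 in wild-type oil, 4.93 and 5.12 in knockout oil, 4.75 and 5.18 in wild-type CCl4 and 5.26 and 5.78 in knockout CCl4. It lay at 5.06 and 5.30 in wild-type saline, 5.62 and 4.81 in knockout saline, 5.37 and 4.94 in wild-type AICAR and 4.78 and 5.17 in knockout AICAR. All 16 values lay between 4.75 and 5.78. Of 24 listed stellate cell markers, 21 had a probe, 17 were tested, and Gfap, Lhx2, Bambi and Vipr1 were detected on 0 arrays. Others on the list were detected on every array, among them Reln (10.47 to 12.65), Ednrb (9.58 to 11.16) and Cygb (8.63 to 10.48). Col1a2, the other chain of type I collagen, was detected on 5 arrays and spanned 5.06 to 6.17 in wild-type oil, 5.45 on both knockout oil arrays, 5.29 to 5.96 in wild-type CCl4, 5.47 to 5.58 in knockout CCl4, 5.61 to 5.71 in wild-type saline, 5.13 to 5.59 in knockout saline, 5.50 to 6.22 in wild-type AICAR and 5.15 to 5.52 in knockout AICAR. The liver label was checked on the 10 tested hepatocyte markers, whose summed linear signal lay between 293000 and 388000 on every array, with Tat detected on 0 arrays. The check is a weak one, since the sum rests largely on Apoa1, Ttr and Trf, which lay at 15.60 to 16.10. The Alb probe lay at 5.23 to 6.97 and was above background on only 1 array each of knockout oil, CCl4 and AICAR.

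In several groups the brighter members differed together between the 2 arrays. In wild-type oil 18 of the 20 brighter members were higher on replicate 1, by a median of 0.64 on the log2 scale, while all tested features had a median of 0.02. In knockout oil 18 of the 20 were higher on replicate 2 (median of replicate 1 minus replicate 2, -1.03), and in wild-type CCl4 19 were (median -0.77). The knockout CCl4, wild-type saline and knockout AICAR pairs had medians of -0.54, -0.47 and -0.44, and the wild-type AICAR and knockout saline pairs -0.07 and -0.01. Acta2 differed the most of the brighter members in both oil groups: 10.34 and 7.77 on the 2 wild-type oil arrays and 8.71 and 11.11 on the 2 knockout oil arrays. The brighter members were thus further apart between replicates in the oil groups than in the wild-type AICAR group.

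**Figure D1:**
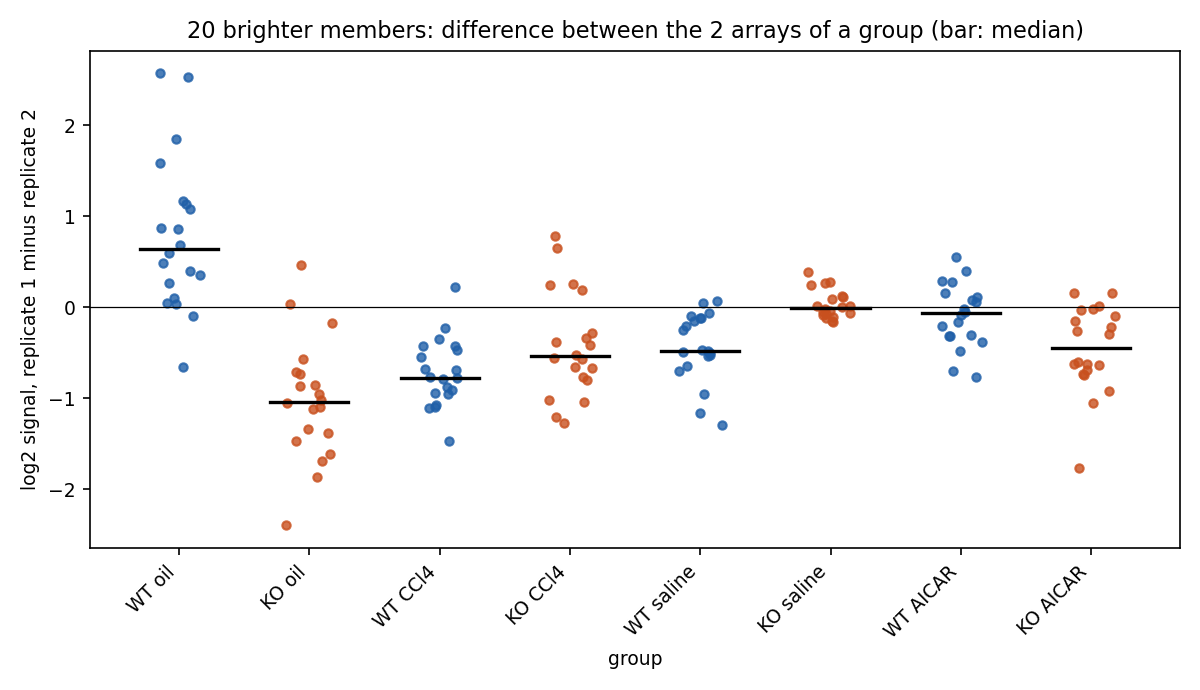
Difference in log2 signal between the 2 arrays of each group (vertical axis, replicate 1 minus replicate 2) for the 20 brighter members, 1 point a gene, with the median as a bar (blue wild-type, orange knockout). The medians run from 0.64 in wild-type oil to -1.03 in knockout oil and lie near 0 in knockout saline and wild-type AICAR.

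The question whether loss of LKB1 alters these genes under each agent was put by comparing knockout with wild-type livers. After AICAR, matrix and myofibroblast genes were lower in the knockout. Acta2 fell 9.61-fold, Col1a1 5.75-fold, Mmp2 5.57-fold, Col6a1 4.35-fold and Pdgfrb 2.51-fold, and Col7a1, the anchoring fibril collagen, rose 1.97-fold. These 6 of 37 tested members were called at an adjusted p under 0.05, where 7.53% of all features were called, 3.52% as lower and 4.02% as higher. In all 29 members were lower and 8 higher, with a median difference of -0.74 on the log2 scale against -0.04 over all features. The knockout arrays lay wholly below the wild-type arrays for 24 members (31.6% of all features) and wholly above for 4 (25.9%). All 20 brighter members were lower, with a median of -1.36. Another Col18a1 probe, detected on all 16 arrays, gave a difference of 0, against -0.44 at the probe read. Other probes of Acta2, Col3a1, Col6a1, Dcn, Sparc and Timp1 were lower too. In whole liver RNA, fewer cells of a type and less RNA per cell cannot be told apart.

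Acta2, the actin of myofibroblasts and smooth muscle, lay at 10.84 and 11.22 on the wild-type AICAR arrays and at 7.42 and 8.11 on the knockout AICAR arrays. The 2 knockout AICAR arrays and the second wild-type oil array, at 7.77, were the 3 lowest of the study, and the AICAR groups did not overlap. The difference was -3.26 ± 0.82 (log2, SE; n = 2 and 2; adjusted p = 0.037), and 3 other probes of Acta2 gave -1.16, -1.09 and -2.16, the same direction at a smaller size. Desmin (Des), the intermediate filament of stellate and muscle cells, lay at 7.60 and 7.20 in wild-type and 7.09 and 6.93 in knockout livers, and transgelin (Tagln), an actin-binding protein, was above background on 1 of the 4 arrays.

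Col1a1, the main chain of type I collagen, lay at 8.64 and 9.41 in wild-type AICAR and at 6.39 and 6.61 in knockout AICAR livers. Beside the second wild-type oil array, also at 6.61, these were the lowest of the study. The difference was -2.52 ± 0.63 (adjusted p = 0.037). Col3a1, of type III collagen, lay at 9.33 and 9.65 in wild-type livers and at 7.69 and 9.44 in knockout livers, so the groups overlapped (-0.92 ± 0.59, adjusted p = 0.37). Col5a1, which starts fibril assembly, lay at 10.09 and 10.42 against 8.49 and 9.23 and missed the threshold (-1.40 ± 0.41, adjusted p = 0.064). Of the 9 tested fibrillar collagens 5 were lower and 4 higher, with 1 called.

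Col6a1, a chain of the microfibrillar type VI collagen, lay at 9.74 and 9.76 in wild-type AICAR livers, the highest values of all 16 arrays, and at 7.33 and 7.93 in knockout AICAR livers. The difference was -2.12 ± 0.44 (adjusted p = 0.017), and another probe gave -2.22. The basement membrane chains Col4a1 and Col4a2, made by endothelial and stellate cells, lay at 11.25 and 11.74 against 9.94 and 10.09, and at 10.59 and 11.29 against 9.69 and 9.73. Neither passed (-1.48 ± 0.43, adjusted p = 0.065, and -1.23 ± 0.48, adjusted p = 0.15), although neither pair of groups overlapped. Col7a1, which anchors epithelia to their stroma, moved the other way: 5.53 and 5.87 in wild-type AICAR livers and 6.91 and 6.44 in knockout AICAR livers, a difference of 0.98 ± 0.25 (adjusted p = 0.037). It was above background on all 4 AICAR arrays and on 1 other array of the study, in knockout CCl4.

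Mmp2, the gelatinase of stellate cells, lay at 10.47 and 10.63 in wild-type and 7.76 and 8.39 in knockout livers after AICAR. The wild-type AICAR arrays were the highest of the study, and of the other arrays only the first of knockout oil, at 8.29, lay as low as the knockout AICAR arrays. The difference was -2.48 ± 0.53 (adjusted p = 0.02). Its inhibitors pointed the same way without passing. Timp2 lay at 9.74 and 9.82 against 8.38 and 8.66 (-1.26 ± 0.35, adjusted p = 0.053), and Timp1 at 10.03 and 9.87 against 7.83 and 8.88 (-1.59 ± 0.72, adjusted p = 0.21). Loxl1 lay at 9.32 and 9.37 against 6.95 and 7.58 (-2.08 ± 0.73, adjusted p = 0.11). Lox lay at 7.15 and 7.27 against 4.56 and 5.49, the last 2 not above background, so that its level was at least 2.9-fold lower in the knockout (adjusted p = 0.11).

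Pdgfrb, the receptor through which PDGF acts on stellate cells, lay at 7.65 and 7.95 in wild-type and 6.42 and 6.52 in knockout livers (-1.33 ± 0.31, adjusted p = 0.028). Pdgfra lay at 8.91 and 8.36 against 7.43 and 8.35, and the groups met almost to the value. The proteoglycan Lum, which orders collagen fibrils, lay at 11.08 and 10.79 against 9.16 and 9.78 (-1.47 ± 0.56, adjusted p = 0.14). The collagen-binding glycoprotein Sparc lay at 12.24 and 12.44 against 11.03 and 10.87 (-1.39 ± 0.45, adjusted p = 0.085). All 4 tested genes of that class were lower and 0 were called.

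**Figure D2:**
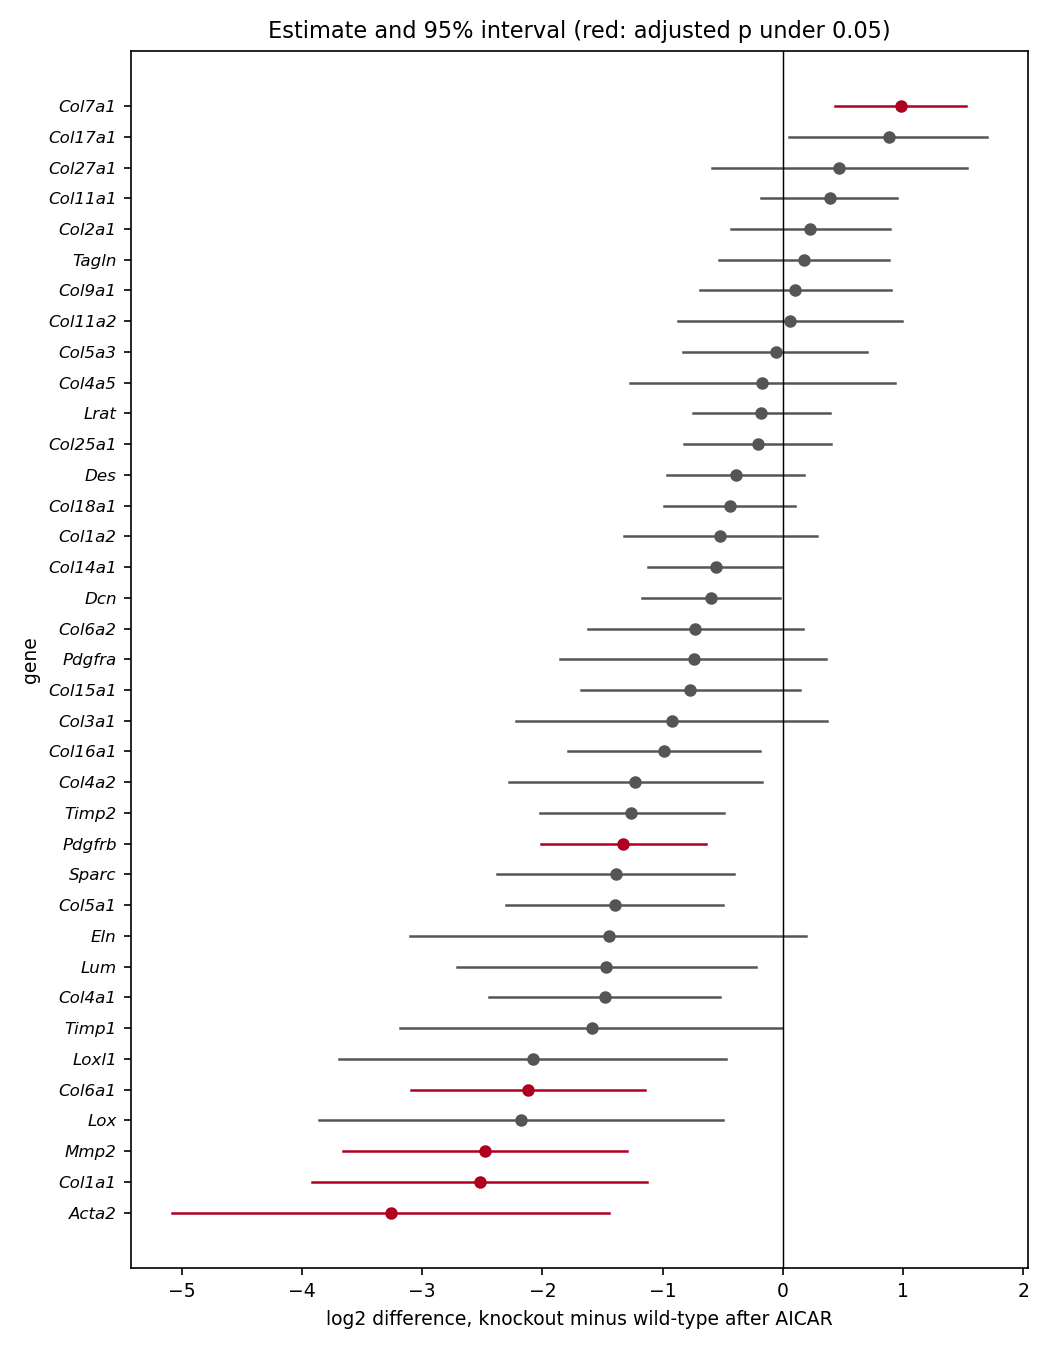
Log2 difference between knockout and wild-type livers after AICAR (horizontal axis) with its 95% interval for the 37 tested members, in red where the adjusted p was under 0.05. The 5 called genes from Acta2 to Pdgfrb lie left of 0 and Col7a1 lies right of it.

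The calls of Col6a1, Mmp2 and Pdgfrb held in 10 other processing settings, that of Col1a1 was lost in 1 (no probe filter) and that of Acta2 in 3 (no probe filter, the mean of all probes, a trended and robust variance), while that of Col7a1 was lost in 4 of the 9 settings that tested it (median centring, no background correction, trended and robust variance, and the values normalized by the authors). A fit to the saline and AICAR arrays alone called 16. The calls depended on single arrays: most on each AICAR array, and those of Acta2 and Col7a1 also on the wild-type saline and CCl4 arrays. With 1 array left out the difference ran from -3.61 to -2.92 for Acta2, -2.91 to -2.14 for Col1a1 and 0.74 to 1.21 for Col7a1. All 20 brighter members stayed lower with each AICAR array left out in turn. That outcome was fixed for all of them but Col3a1, because groups that do not overlap cannot change order when 1 array is dropped. For Col3a1 the difference ran from -1.80 to -0.05. These genes also differed together between replicates, so they are not 20 separate results.

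**Figure D3:**
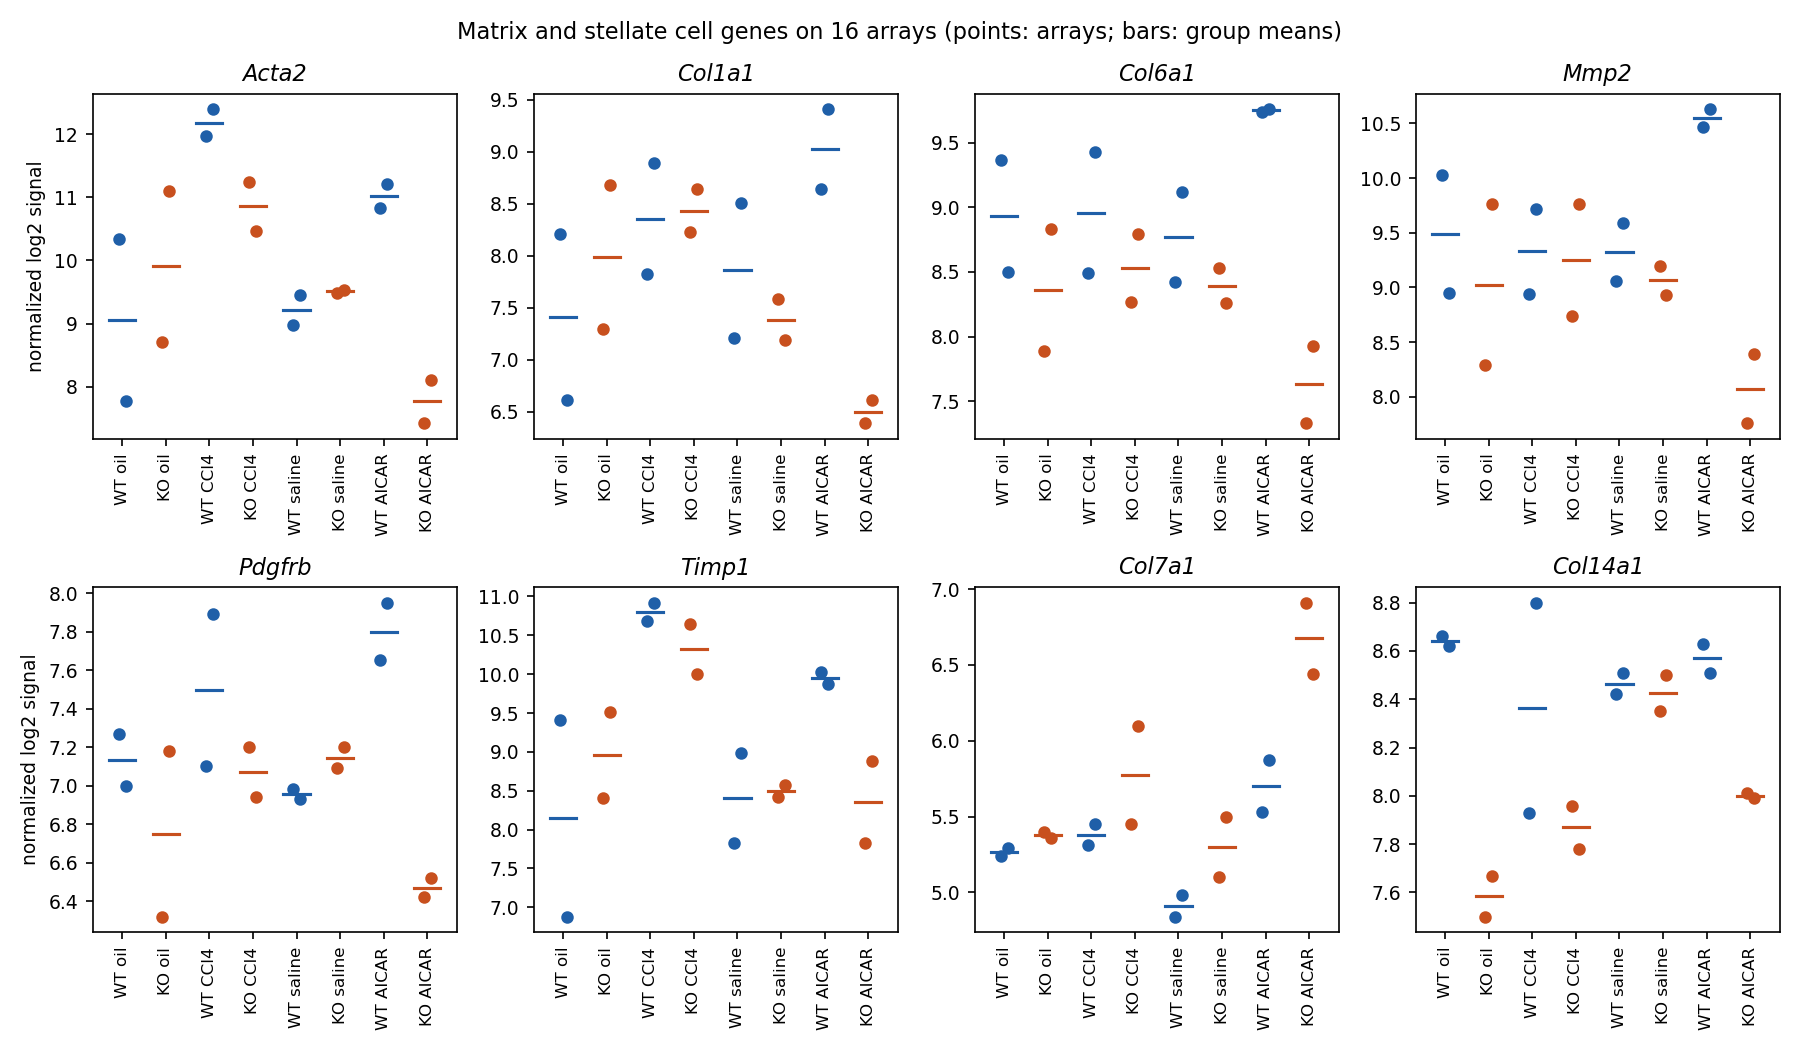
Normalized log2 signal (vertical axes, each with its own range) of 8 members on the 2 arrays of each group, with group means as bars (blue wild-type, orange knockout). The wild-type AICAR mean is the highest and the knockout AICAR mean the lowest for Col1a1, Col6a1, Mmp2 and Pdgfrb; Acta2 and Timp1 are highest after CCl4, and Col7a1 is highest in knockout AICAR.

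Genes that act on collagen, on lists kept beside the members, were counted in the same comparison, where 7.53% of all features were called. Of 17 tested collagen-modifying enzymes and chaperones 15 were lower after AICAR in the knockout, with a median of -0.57, and 4 fell. Serpinh1, the collagen chaperone HSP47, lay at 8.31 and 8.28 in wild-type and 7.11 and 5.99 in knockout livers (-1.74 ± 0.41, adjusted p = 0.027). The prolyl hydroxylase P3h1 (-0.74 ± 0.18, adjusted p = 0.037) and the lysyl oxidase Loxl2 (-1.0 ± 0.25, adjusted p = 0.033) fell too. P3h2 lay at 6.44 and 6.66 against 5.47 and 5.56, the latter not above background, at least 1.84-fold lower (adjusted p = 0.031). Of 27 other matrix glycoproteins and proteoglycans 22 were lower (median -0.58), among which Tnc (-2.19 ± 0.58, adjusted p = 0.045) and Prelp (-1.89 ± 0.36, adjusted p = 0.012) fell and the laminin chain Lamb3 rose (1.31 ± 0.31, adjusted p = 0.031).

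In the remaining lists the share of genes that passed was near or below that of all features, or rested on 1 gene in each direction. In TGF-beta and PDGF signalling 14 of 23 genes were lower and 2 passed: Ltbp3, which binds latent TGF-beta, fell (-1.57 ± 0.38, adjusted p = 0.031) and the signal transducer Smad3 rose (0.83 ± 0.21, adjusted p = 0.04). Among 19 other matrix proteases and inhibitors 12 were lower and 1 passed: Adamts1, an aggrecan and versican protease, rose from 6.38 and 6.44 to 9.24 and 8.59 (2.50 ± 0.30, adjusted p = 0.001). Of 19 matrix receptors 10 were lower, Itgb5 fell (-1.02 ± 0.23, adjusted p = 0.025) and the heparan sulphate proteoglycan Sdc1 rose (1.04 ± 0.22, adjusted p = 0.019).

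The calls of Serpinh1, Ltbp3, Adamts1, Prelp and Itgb5 held in 10 other processing settings. Those of P3h1 and Tnc were lost in 2 of the 10, that of P3h2 in 2 of 9, that of Loxl2 in 3 and those of Smad3, Lamb3 and Sdc1 in 1. Leaving out 1 of the 16 arrays at a time ended the Adamts1 call for 0 of them and the other calls for 3 (Serpinh1, Prelp, Itgb5, Sdc1) to 9 (Tnc).

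Markers of several cell types moved with these values, and their part in the result was not tested. Of the 17 tested stellate cell markers 13 were lower in the knockout after AICAR: Tcf21, a transcription factor of quiescent stellate cells, fell (-1.96 ± 0.41, adjusted p = 0.017) and the collectin Colec10 rose (1.59 ± 0.35, adjusted p = 0.023). Their summed linear signal lay between 13400 and 14000 on the wild-type and 8840 and 9280 on the knockout arrays. All 10 portal fibroblast markers were lower, with sums of 4350 to 4800 against 1570 to 1690, and Gas6 (-1.52 ± 0.22, adjusted p = 0.0025) and Entpd2 (-2.50 ± 0.49, adjusted p = 0.013) fell. The 5 tested smooth muscle markers were all lower (1590 to 1630 against 1060 to 1090, with Cnn1, Synpo2 and Lmod1 detected on 0 arrays), as were the 4 mesothelial ones (267 to 385 against 200 to 209, Lrrn4 on 0 arrays), of which Wt1 passed the test at 6.59 and 6.82 against 4.73 and 5.50, where the knockout arrays were not above background (at least 2.04-fold lower; adjusted p = 0.0086).

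Markers of cells outside the mesenchyme were counted in the same way. Of 9 Kupffer cell markers 8 were lower (30300 to 40600 against 15600 to 20200, Cd5l on 0 arrays), and the 3 tested erythroid markers were all lower (44300 to 49200 against 10400 to 10500, Epb42 on 0 arrays), among which Hba-a1 fell by 2.21 ± 0.59 (adjusted p = 0.045). The erythroid sum was mostly Hba-a1. Sums of sinusoidal endothelial markers overlapped (11800 to 15100 against 11900 to 13700, with Bmp2 on 0 arrays), and 7 of 13 were lower. Of the neutrophil and monocyte markers 7 of 8 were lower (4710 to 7120 against 1660 to 4260; Cxcr2, Ccr2 and Mmp8 on 0 arrays), and all 6 lymphocyte markers (1300 to 1560 against 851 to 1080; Ms4a1 and Klrb1c on 0 arrays). Cholangiocyte markers had 3 of 4 lower but higher sums in the knockout (360 to 384 against 518 to 861; Cftr on 0 arrays). The 4 tested pancreatic acinar markers were higher in the knockout, though their sums overlapped (1740 to 2130 against 2100 to 2610, Cpa1 and Clps on 0 arrays). The 2 adipocyte markers were higher too (7120 to 13400 against 14700 to 20600), with Adipoq, Plin1 and Retn on 0 arrays. That sum was mostly Car3, at 12.79 and 13.71 against 13.84 and 14.33, while Lep lay at 5.70 and 5.61 against 6.38 and 5.98. Of 3 skeletal muscle markers 2 were higher, but the sums overlapped (129 to 163 against 125 to 163, with Ckm, Myh4, Myh1 and Tnnt3 on 0 arrays). Hepatocyte markers were split evenly, 5 lower and 5 higher, with sums of 325000 to 334000 against 342000 to 346000. Among these marker genes the calls of Tcf21, Colec10, Gas6, Entpd2 and Wt1 held in all processing settings that tested them, and that of Hba-a1 was lost in 2 of 10; leaving out 1 array at a time ended the Gas6 call for 0 arrays, the Wt1 call for 2, those of the other 3 for 3 or 4 and the Hba-a1 call for 12.

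The effect of AICAR itself was compared with saline in each genotype. In wild-type livers 29 of 37 members were higher after AICAR and 8 lower (median 0.57 against 0.02 over all features), and in knockout livers 12 were higher and 25 lower (median -0.18 against -0.05). Among the 20 brighter members 19 were higher in the wild-type and 19 lower in the knockout. Other probes went the other way for Sparc (-0.08 against 0.46) and Dcn (-0.09 against 0) in the wild-type. So did one of Col3a1 in the knockout (0.51 against -0.08), while those of Acta2, Col6a1, Col18a1 and Timp1 kept direction. No member passed the test in either genotype (limma, adjusted p under 0.05), where 0.00883% of all features were called in wild-type and 1.12% in knockout livers. At an unadjusted p under 0.05, 8 members would count in wild-type livers, where 10.7% of all features would, and 2 in knockout livers, a smaller share than the 12.2% of all features. The comparisons between genotypes and between agents share the AICAR arrays.

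Sums of stellate cell, portal fibroblast, Kupffer cell, mesothelial and erythroid markers moved with AICAR too, in opposite directions in the genotypes. The part of markers in these values was not tested. Stellate cell markers summed to 11600 to 12200 after saline and 13400 to 14000 after AICAR in wild-type livers, and to 10800 to 11100 and 8840 to 9280 in knockout livers. Portal fibroblast markers summed to 3220 to 3240 and 4350 to 4800 in the wild-type, and to 2890 to 3140 and 1570 to 1690 in the knockout. Kupffer cell markers summed to 27000 to 28700 and 30300 to 40600 in the wild-type, and to 24200 and 15600 to 20200 in the knockout. Mesothelial sums were 221 to 267 and 267 to 385 in the wild-type, where the ranges met, and 222 to 279 and 200 to 209 in the knockout. Erythroid markers summed to 17800 to 25400 and 44300 to 49200 in the wild-type, and to 27900 to 28600 and 10400 to 10500 in the knockout. That sum was mostly Hba-a1, at 14.08 and 14.59 after saline and 15.57 and 15.42 after AICAR in the wild-type. Alas2 went the other way there, from 9.04 and 9.27 to 8.85 and 8.77. Slc4a1 rose from 5.24 and 5.18, not above background, to 6.26 and 6.80. Sums of some other lists moved the same way in both genotypes. Smooth muscle sums fell (wild-type 1670 to 1740 against 1590 to 1630, knockout 1200 to 1250 against 1060 to 1090). In the wild-type only Mylk of that list had a lower mean (10.24 and 10.21 after saline, 9.87 and 9.89 after AICAR). There Mustn1 lay at 6.80 and 7.42 against 8.24 and 7.77, and the means of Actg2, Tpm2 and Smtn were higher too. In the knockout Mylk did not fall (9.35 and 9.47 against 9.57 and 9.45), while Mustn1 did (7.69 and 7.89 against 6.81 and 6.84). Sinusoidal endothelial sums fell too (wild-type 16100 to 18600 against 11800 to 15100, knockout 15800 to 17400 against 11900 to 13700). Cholangiocyte sums rose (wild-type 256 to 319 against 360 to 384, knockout 226 to 279 against 518 to 861). The rise in the knockout was mostly that of Sox9, from 6.36 and 6.85 to 8.31 and 9.51. Krt7 was lower there after AICAR, at 5.56 and 6.04 against 5.39 and 4.97, the last 2 not above background.

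In wild-type livers the smallest p-values belonged to Col15a1, Col7a1 and Pdgfrb. Col15a1, a basement membrane zone collagen, lay at 5.27 and 6.40 after saline and at 7.26 and 7.55 after AICAR (1.57 ± 0.41, adjusted p = 0.27). Pdgfrb lay at 6.98 and 6.93 after saline and 7.65 and 7.95 after AICAR (0.84 ± 0.31, adjusted p = 0.39). Col7a1 lay at 4.84 and 4.98 after saline, not above background, and at 5.53 and 5.87 after AICAR, at least 1.03-fold higher (adjusted p = 0.32). Mmp2 lay at 9.06 and 9.59 after saline against 10.47 and 10.63 (1.23 ± 0.53, adjusted p = 0.46) and Acta2 at 8.97 and 9.46 against 10.84 and 11.22 (1.81 ± 0.82, adjusted p = 0.47). Col6a1 lay at 8.42 and 9.12 against 9.74 and 9.76, and Col1a1 at 7.21 and 8.51 against 8.64 and 9.41. For each of these genes both AICAR arrays lay above both saline arrays, as for 23 of the 37 members and 3186 of all 11322 features. The other Acta2 probes gave smaller differences of 1.05, 0.83 and 1.25.

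In knockout livers Col7a1, Col17a1 and Dcn had the smallest p-values. Col7a1 lay at 5.10 and 5.50 after saline, not above background, and at 6.91 and 6.44 after AICAR, at least 2.05-fold higher (adjusted p = 0.06). Col17a1, a transmembrane collagen of epithelial cells, lay at 5.38 and 5.07 after saline, also not above background, and at 6.79 and 6.82 after AICAR, at least 2.24-fold higher (adjusted p = 0.15). Its other probes, detected on 9 and 6 of the 16 arrays, gave smaller differences, 0.43 and 1.05. Dcn, a proteoglycan that binds TGF-beta, lay at 13.82 and 13.88 against 13.14 and 13.17 (-0.70 ± 0.32, adjusted p = 0.42). Acta2 lay at 9.49 and 9.53 after saline against 7.42 and 8.11 after AICAR (-1.74 ± 1.01, adjusted p = 0.55), Mmp2 at 9.20 and 8.93 against 7.76 and 8.39 (-0.99 ± 0.66, adjusted p = 0.61) and Pdgfrb at 7.09 and 7.20 against 6.42 and 6.52 (-0.67 ± 0.38, adjusted p = 0.54). For these 3 genes both AICAR arrays lay below both saline arrays, which count as 1 sample, the reverse of their order in wild-type livers. Both AICAR arrays lay below the saline mean for 20 of the 37 members and for 4461 of all 11322 features. The other Acta2 probes gave smaller differences of -0.38, -0.57 and -0.93.

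Whether the AICAR effect differed between genotypes was tested as an interaction, the knockout difference minus the wild-type difference. None of the 37 members passed, where 0.3% of all features did, and 8 members had an unadjusted p under 0.05, as did 9.15% of all features. Col17a1 (adjusted p = 0.32; not above background in knockout saline), Pdgfrb (-1.52 ± 0.49, adjusted p = 0.36) and Acta2 (-3.55 ± 1.30, adjusted p = 0.42) had the smallest p-values. The interval of the Acta2 interaction ran from -6.42 to -0.69, and the other Acta2 probes gave smaller interactions of -1.44, -1.40 and -2.18. The interaction was negative for all 20 brighter members, with a median of -1.25, while over all tested features the median was -0.04. That holds for the probes read here. Another Col18a1 probe gave 0.55, against -0.12 at the probe read, and another Col3a1 probe, detected on 6 arrays, gave 0 against -1.18. Other probes of Col6a1, Dcn, Sparc and Timp1 stayed negative. Under array weights 1 member was called for AICAR in each genotype, and with both knockout saline arrays as samples 2 were in the knockout; a fit to the saline and AICAR arrays alone called 1 in the knockout and 1 interaction.

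**Figure D4:**
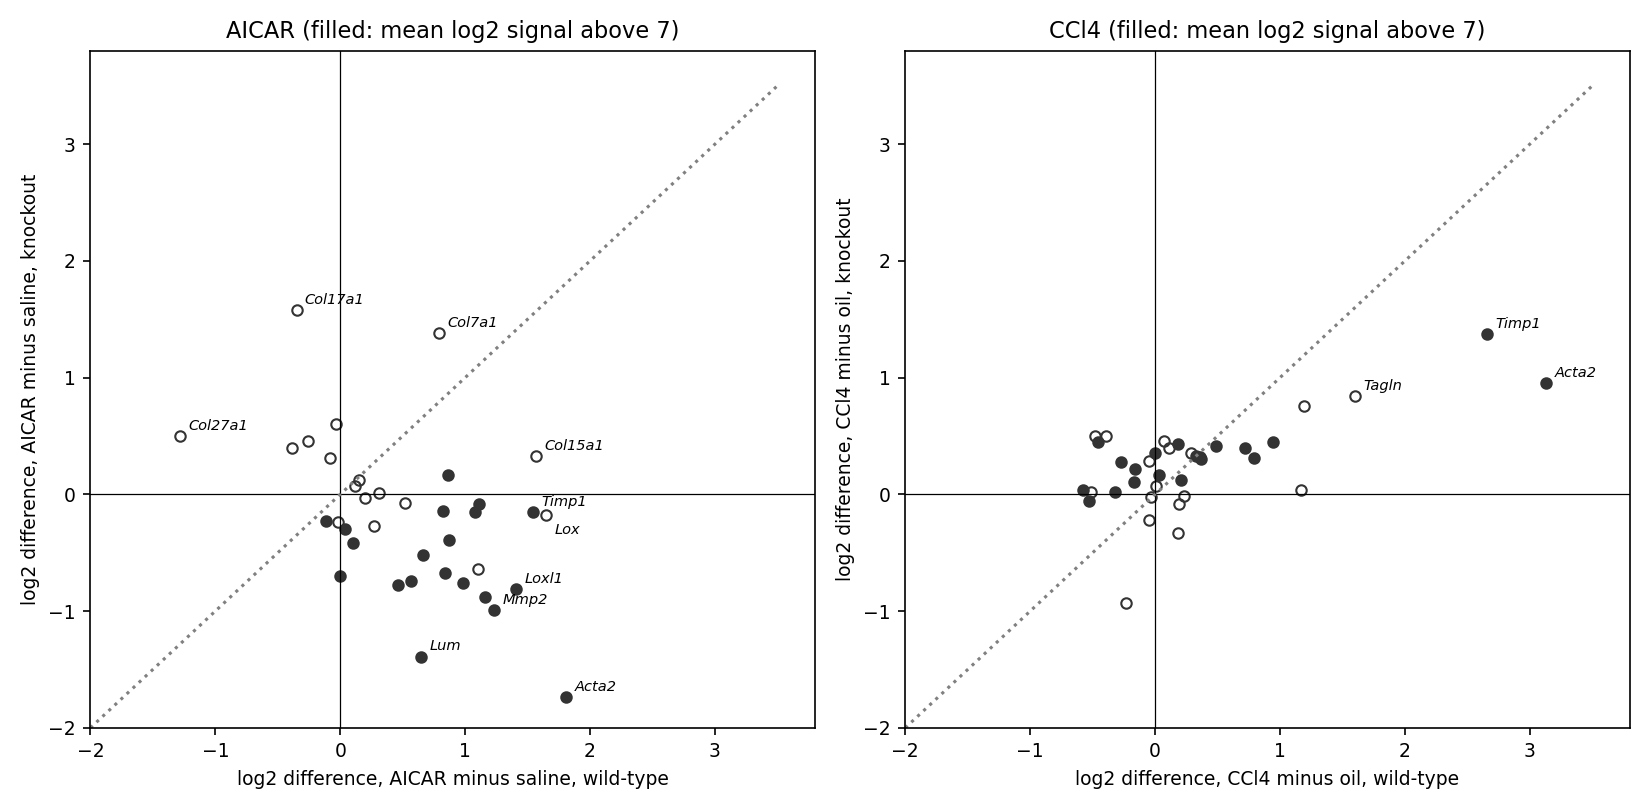
Log2 difference of each tested member for AICAR minus saline (left) and CCl4 minus oil (right), with wild-type livers on the horizontal and knockout livers on the vertical axis; filled points are the 20 brighter members and the dotted line marks equal differences. On the left 19 filled points lie right of 0 and 19 lie below 0; on the right Acta2, Timp1 and Tagln stand apart, further along the wild-type axis.

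CCl4 was compared with mineral oil to show the response to toxic injury. The members with the smallest p-values in wild-type livers were myofibroblast and injury genes, but no member passed the test, and 0% of all features were called in wild-type livers, in knockout livers and in the interaction between them. At an unadjusted p under 0.05 4 members would count in wild-type livers, 2 in knockout livers and 1 in the interaction, counts near the shares of all features (9.34%, 3.56% and 4.09%). Of the 37 members 23 were higher after CCl4 in the wild-type (median 0.11, all features 0.01) and 30 in the knockout (median 0.30, all features 0.02).

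Acta2 lay at 10.34 and 7.77 in wild-type oil and at 11.97 and 12.40 in wild-type CCl4, the 2 highest arrays of the study (3.13 ± 0.82, adjusted p = 0.43). In knockout livers it lay at 8.71 and 11.11 in oil and 11.25 and 10.47 in CCl4, so the groups overlapped (0.95 ± 0.82, adjusted p = 1). The other Acta2 probes gave 1.83, 1.74 and 3.10 in the wild-type and 0.23, 0.80 and 1.10 in the knockout. Timp1, the inhibitor that rises in injured liver, lay at 9.41 and 6.88 in wild-type oil against 10.69 and 10.92 in CCl4 (2.66 ± 0.72, adjusted p = 0.43), and at 8.40 and 9.51 against 10.65 and 10.00 in the knockout (1.37 ± 0.72, adjusted p = 1). In both genotypes the CCl4 arrays of Timp1 lay above the oil arrays. Of all 11322 features, 2339 did so in the wild-type and 1597 in the knockout. Summed smooth muscle markers were 1390 to 1910 in oil and 1770 to 2710 after CCl4 in the wild-type, and 1130 to 1570 and 1530 to 1560 in the knockout. Their part in the Acta2 values was not tested.

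Tagln was above background on both arrays of both CCl4 groups, on 1 knockout AICAR array and on no other. It lay at 5.49 and 4.99 in wild-type oil and 6.87 and 6.80 in wild-type CCl4, at least 2.18-fold higher (adjusted p = 0.38). In the knockout it lay at 4.91 and 5.51 in oil and 6.23 and 5.88 in CCl4, at least 1.19-fold higher (adjusted p = 1). Col1a1 lay at 8.21 and 6.61 against 7.82 and 8.89 in the wild-type and at 7.30 and 8.68 against 8.23 and 8.64 in the knockout, and Col3a1 at 8.88 and 8.84 against 7.94 and 8.85 and at 7.59 and 8.71 against 8.0 and 9.20. All 4 pairs of groups overlapped.

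Col25a1, a transmembrane collagen, had the smallest p-value in knockout livers, at 6.19 and 5.94 in oil and 4.80 and 5.47 in CCl4, the latter not above background, at least 1.25-fold lower (adjusted p = 1). In the interaction the smallest p-values were those of Lrat and Col2a1, at the edge of detection, and of Col15a1 (-1.13 ± 0.58, adjusted p = 1). The Acta2 interaction was -2.18 ± 1.16, with an interval from -4.75 to 0.38, and the other Acta2 probes gave -1.60, -0.94 and -2.01. Without the first knockout oil array the Acta2 difference in knockout livers turned to -0.25.

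**Figure D5:**
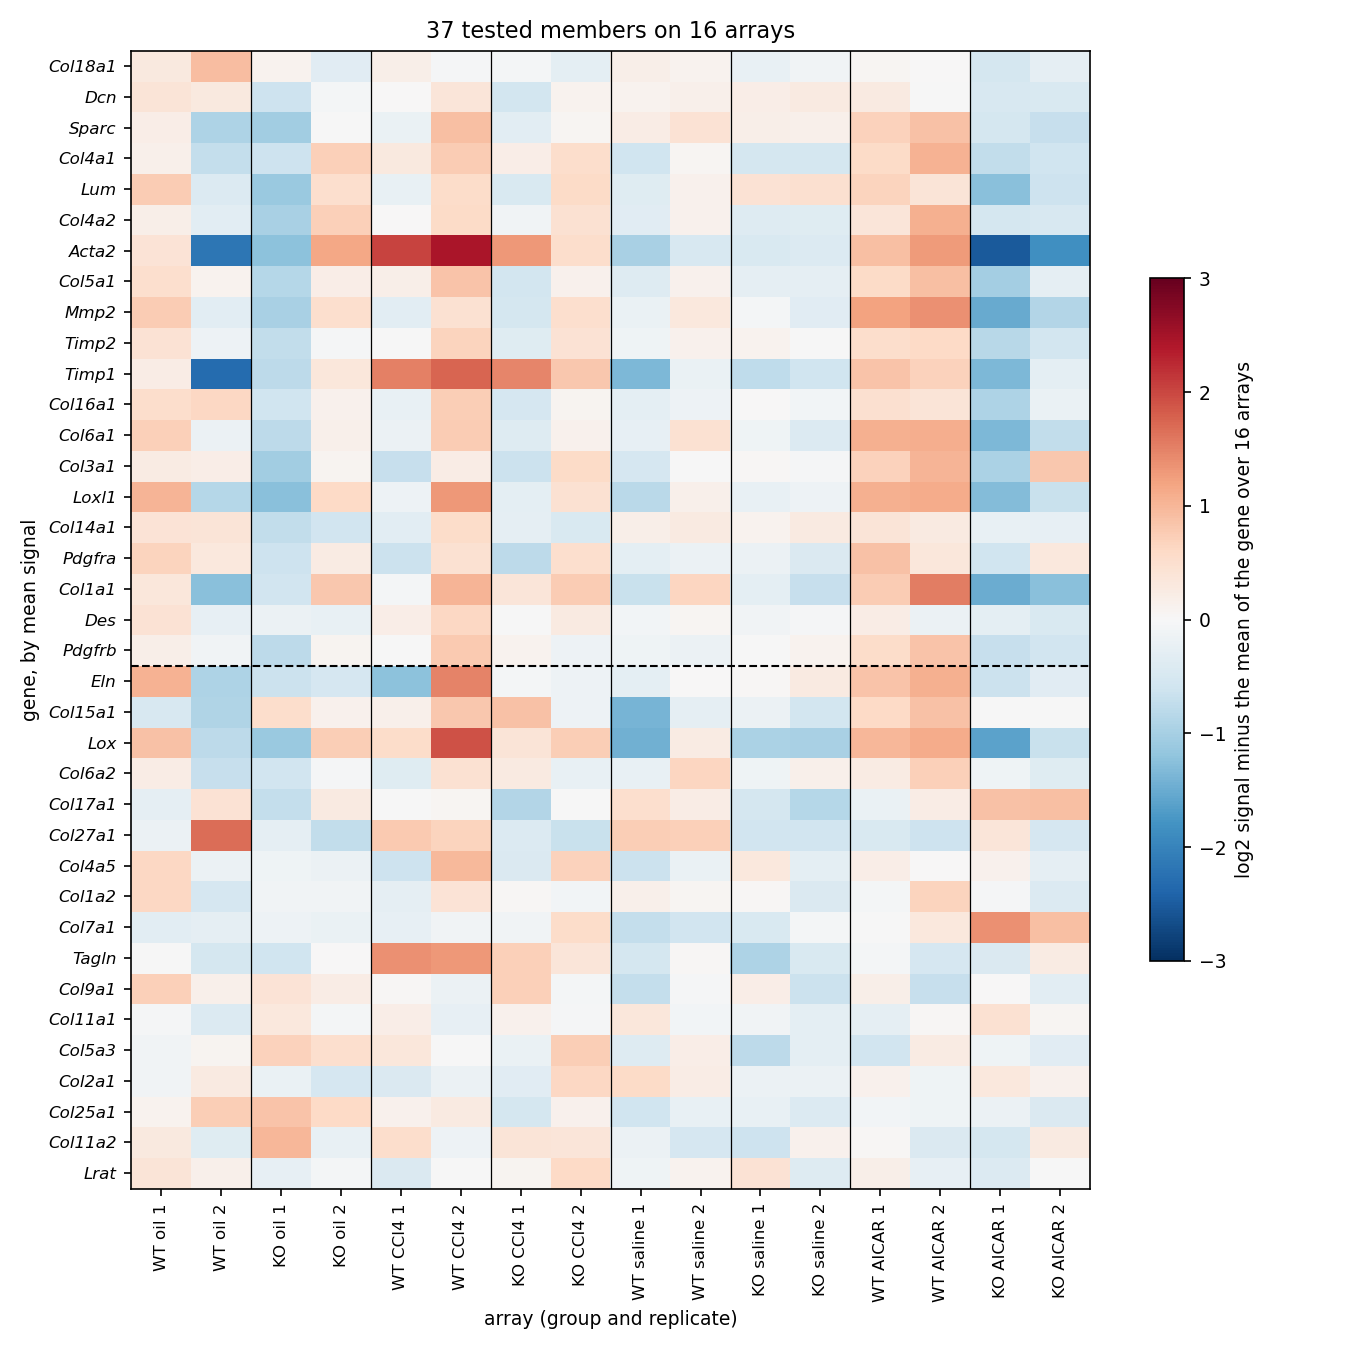
Log2 signal of the 37 tested members on the 16 arrays, each gene centred on its mean (colour scale from -3 to 3, red above and blue below the mean); genes are ordered by mean signal, and the 20 brighter members lie above the dashed line. Most members above the line are red on both wild-type AICAR arrays and blue on the first knockout oil array and both knockout AICAR arrays.

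The genotypes were also compared in the other agents. No member passed in oil (1.25% of all features called), in saline (0.132%), after CCl4 (1.29%) or over both vehicles (1.32%). At an unadjusted p under 0.05, 6 members would count in oil, 2 in saline, 2 after CCl4 and 5 over both vehicles. For all features these shares were 15.7%, 4.79%, 11.7% and 12.4%, so that the members lay near the background, and below it after CCl4. In oil 27 members were lower and 10 higher (median -0.30), and in saline 20 were lower and 17 higher (median -0.05). After CCl4 28 were lower and 9 higher (median -0.23). Medians over all features in these 3 comparisons were -0.01, 0 and -0.02. Summed stellate cell markers lay at 13400 to 18000 in wild-type against 6500 to 10200 in knockout oil livers, at 11600 to 12200 against 10800 to 11100 in saline and at 10700 to 17700 against 8020 to 11000 after CCl4. In oil sinusoidal endothelial markers summed to 14300 to 15400 in wild-type and 7860 to 9760 in knockout livers, and mesothelial markers to 199 to 234 and 353 to 402. The part of these markers in the values was not tested.

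Col14a1, a fibril-associated collagen of stellate cells and fibroblasts, came nearest in oil, at 8.66 and 8.62 in wild-type and 7.50 and 7.67 in knockout livers (-1.05 ± 0.25, adjusted p = 0.079). In saline it lay at 8.42 and 8.51 against 8.35 and 8.50, after CCl4 at 7.93 and 8.80 against 7.96 and 7.78, and after AICAR at 8.63 and 8.51 against 8.01 and 7.99. Col18a1, the source of endostatin and a product of hepatocytes, lay at 14.06 and 14.71 in wild-type oil and 13.89 and 13.43 in knockout oil (-0.73 ± 0.25, adjusted p = 0.19). Another Col18a1 probe, detected on all 16 arrays, gave a smaller difference of -0.28 in oil. After CCl4 it gave 0.12, against -0.26 at the probe read. Col27a1, a fibrillar collagen of cartilage, was above background on both arrays of wild-type oil, CCl4 and saline and on none of the knockout oil, CCl4 and saline arrays: the wild-type level was at least 1.76-fold, 1.81-fold and 1.95-fold higher (adjusted p = 0.24, 0.31 and 1). In oil the bound rests on the second wild-type array, since Col27a1 lay at 5.70 and 7.55 in wild-type oil: without that array the difference was -0.34 (adjusted p = 0.77), and without the first it was -2.19 (adjusted p = 0.029). After AICAR it was above background on 1 knockout array and on no wild-type array.

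Averaged over the 4 agents, 3 members were called between genotypes, where 9.31% of all features were. Col14a1 (-0.54 ± 0.13, adjusted p = 0.03) and Col6a1 (-0.88 ± 0.23, adjusted p = 0.04) were lower in the knockout, and Col7a1 was higher (adjusted p = 0.048), a call that rests mostly on values not above background, as it was detected on 5 of 16 arrays. The Col14a1 call held in 9 other processing settings, that of Col6a1 was lost in 2 of 9 and that of Col7a1 in 5 of 8, and leaving out 1 array at a time ended them for 8, 8 and 13 of the 16 arrays. In all 31 members were lower and 6 higher, the median was -0.38 against -0.02 over all features, and all 20 brighter members were lower. This average holds the AICAR arrays, and leaving out either wild-type AICAR array, the first knockout AICAR array, the first knockout oil array or the second wild-type saline array left 0 members called. The count was 1 without a probe filter, 5 under array weights or without the second knockout oil array, 7 with both knockout saline arrays as samples, and 1 without the second wild-type CCl4 array or the first wild-type saline array.

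Among the other matrix genes, Sdc1 was called in oil (1.18 ± 0.22, adjusted p = 0.032), after CCl4 (1.37 ± 0.22, adjusted p = 0.016) and after AICAR, each time higher in the knockout, and over all agents by 1.08 ± 0.12 (adjusted p = 0.00031). Its call was lost in 3 of 10 other settings in oil and 1 of 10 after CCl4, and leaving out 1 array at a time ended it for 8 and 3 arrays, while over all agents it was lost in 0 of 9 settings and for 0 arrays. Osteomodulin (Omd), a keratan sulphate proteoglycan, fell in oil, from 7.77 and 8.77 in wild-type to 6.36 and 6.33 in knockout livers (-1.92 ± 0.32, adjusted p = 0.019). That call was lost with array weights, in a fit to the oil and CCl4 arrays alone, and without the second wild-type oil array or either knockout oil array. The averages over both vehicles (-1.91 ± 0.25, adjusted p = 0.0039) and over all agents (-1.32 ± 0.17, adjusted p = 0.00094), which hold the oil arrays, kept their Omd calls in all 9 settings and with each array left out. Loxl2, which fell after AICAR, lay at 5.53 and 5.57 in wild-type oil, not above background, and at 6.66 and 7.38 in knockout oil, at least 2.48-fold higher (adjusted p = 0.019). That call was lost without background correction, with array weights, in a fit to the oil and CCl4 arrays alone, and without either wild-type oil array or the second knockout oil array.

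The vehicles were compared over both genotypes. None of the members passed, 2 had an unadjusted p under 0.05, a smaller share than the 10.3% of all features, and 0% of all features were called. The 3 smallest p-values were those of Col25a1, Col9a1 and Col5a3, each near background, with Col25a1 at 5.43 and 6.08 in wild-type oil and 4.73 and 5.12 in wild-type saline. Of the brighter members 12 were higher in oil and 8 in saline.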

How the data were processed

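Liver RNA of 16 samples was hybridised to 1-colour Illumina bead arrays as biotin-labelled cRNA, per the labels' protocols. The deposited table holds the authors' probe intensity, not normalized, and a detection p-value per probe, and the submitters' processing notes name GenomeStudio. The authors' normalized intensity values, deposited per sample, ranked probes as the table does (rank correlation 1) and served as an alternative. Of the probes 23978 had 1 symbol in the platform annotation, 0 had several and 1719 had none.

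With R 4.3.3 and limma 3.58.1, background was corrected by normexp from the detection p-values (offset 16). Signals were then quantile normalized and taken to log2. Probes with detection p under 0.05 on at least 2 arrays were kept (15411), 1 per gene by highest mean, which left 11322 features. A model with 1 mean per group over 15 samples (the 2 knockout saline arrays averaged) was fitted with lmFit and eBayes. Tests were two-sided, with Benjamini-Hochberg adjustment over all 11322 features and a threshold of 0.05, and ± after a difference is its standard error. The script was tested on simulated data. Where all arrays of a group were not above background, "at least N-fold" sets the mean of the other group against the lowest detected signal on each array, or the dim probe's own value where higher.

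Members, gene lists and marker lists were chosen with earlier results of these data known. Any member could be named. Values per array are given for members called in any comparison and for Col1a1, Col1a2, Col3a1, Acta2, Timp1, Lrat and Pdgfrb, not for every group. In most comparisons that called none, up to 3 members with the smallest p were named, and of other lists at most 4 called genes. Between genotypes in saline and after CCl4 only Col27a1 of these was named. Alternatives were other background corrections, scalings, probe filters and probe rules, the authors' values, another variance model, array weights, fits to fewer groups, all 16 arrays as samples, a replicate block and leaving out each array.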

Additional observations from a re-analysis of the deposited data

How the results depend on the processing

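The number of members called after AICAR between genotypes (6) ran from 0 to 10 with 1 array left out and was 16 in a fit to the saline and AICAR arrays alone. With the replicate number as a block it was 7, which held 5 of the 6 but not Acta2. Same-numbered arrays deviated together in some pairs of groups and oppositely in others (correlations from -0.502 to 0.552 over 21 pairs). Whether the numbers pair any of the samples cannot be told from this, and the block is given only here. Averaged over all agents the 3 calls became 1 without a probe filter, 5 with array weights, 7 with both knockout saline arrays as samples and 0 to 5 with an array left out. For AICAR against saline the count of 0 became 1 with array weights in the wild-type. In the knockout it became 1 with array weights, 1 in the fit to saline and AICAR arrays and 2 with both knockout saline arrays as samples, and 0 to 1 with an array left out. The AICAR interaction gave 1 in the fit to saline and AICAR arrays. Between genotypes in oil it became 1 with both knockout saline arrays as samples and 0 to 1 with an array left out, and over both vehicles 0 to 1. The Acta2 difference for CCl4 in the knockout (0.95) turned to -0.25 without the first knockout oil array and was 2.15 without the second, and the cause was not tested.

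Over all features the calls after AICAR between genotypes (853) ran from 741 to 1392, and from 228 to 1095 with an array left out. For AICAR they ran from 0 to 218 in the wild-type (1 as reported), from 102 to 650 in the knockout (127) and from 17 to 117 in the interaction (34). Between genotypes they ran from 33 to 243 in oil (141), 12 to 94 in saline (15), 40 to 222 after CCl4 (146), 138 to 436 over both vehicles (150) and 917 to 1614 over all agents (1054), and between vehicles from 0 to 60. Of the values recomputed for 97 differences of single genes, 2311 kept direction and call, 218 kept direction but no longer passed, 49 newly passed and 1 reversed. Probes near background and 2 arrays a group limit what can be seen.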
